A study of Homo sapiens with 36 samples.

Results

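Amino acid transporters carry the building blocks of protein across the plasma membrane, and 10 of their genes, SLC1A4, SLC1A5, SLC3A2, SLC7A1, SLC7A5, SLC7A11, SLC38A1, SLC38A2, SLC6A9 and SLC43A1, were followed through all 36 RNA-Seq libraries of the series. They were chosen by name, and each matched 1 of the 60656 genes in the files. All 10 passed the filter on low values in every line. The libraries were made from BRAF-V600 mutated human melanoma lines, namely 1205LuTR-NR2F1 (1205Lu from here on), WM793TR-NR2F1 (WM793) and A375TR-NR2F1 (A375). There were 3 lines, with 4 treatments per line and 3 libraries per treatment.

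Every group carried the Tet repressor and a lentiviral NR2F1 cDNA under its control, in hygromycin-selected cells. NR2F1 is an orphan nuclear receptor. The DMSO group received solvent alone. The DMSO + DOX group received doxycycline (DOX) at 100 ng/mL, which switches the cDNA on. The BRAFi + MEKi group received the BRAF inhibitor PLX4720 at 1 µM with the MEK inhibitor PD0325901 at 35 nM, and the BRAFi + MEKi + DOX group received all 3 agents. Treatment lasted 72 hours after a lead of 24 hours. The labels give that lead as with or without DOX, whereas the methods describe DOX for all cells, so whether the groups without DOX had it in the lead cannot be told. No library had DOX without the NR2F1 cDNA, and effects of DOX and of NR2F1 cannot be told apart. 1205Lu and WM793 grew in a medium with 2% serum and added insulin and A375 in DMEM with 10% serum, so line and medium cannot be told apart in comparisons with A375.

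Proliferating cells import amino acids through a few linked carriers. SLC1A5 (ASCT2) exchanges small neutral amino acids including glutamine, and SLC1A4 (ASCT1) exchanges serine, alanine, cysteine and threonine. SLC38A1 and SLC38A2 (SNAT1 and SNAT2) use the sodium gradient to load the cell with glutamine and other neutral amino acids, and SLC38A2 is known to be induced by amino acid shortage. SLC3A2 (CD98 heavy chain) is the glycoprotein subunit that brings the light chains SLC7A5 (LAT1, leucine and other large neutral amino acids) and SLC7A11 (xCT, cystine import against glutamate) to the membrane. SLC7A1 (CAT1) takes up arginine and lysine, SLC6A9 (GlyT1) glycine, and SLC43A1 (LAT3) large neutral amino acids without sodium. Many of these genes are known targets of ATF4, the transcription factor of the integrated stress response, and some of MYC. SLC7A11 is also a known target of NRF2 (gene NFE2L2). Leucine entering through SLC7A5 is one input to mTORC1.

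Promoter sequences of 9 members, all but SLC7A11, were read from RefSeq (GRCh38.p14, 250 bases before to 50 bases after the annotated start). They are shown because several members moved together in the libraries. 4 short motifs were searched on both strands. The ATF4 and C/EBP composite TGATGNAA was found in 3 of 9 windows, against 3.67% of 27305 promoters of the same length. The windows are printed on the gene's strand, with the motif in capitals; the SLC3A2 match reads on the opposite strand.
SLC38A1 (chr12:46266504-46266529, minus strand, motif from 4 bases before the start): agacccgaaTGATGAAAagggatcag
SLC7A1 (chr13:29595665-29595690, minus strand, motif from base 8 after the start): gcgcactgcTGATGAAAcctggcgcc
SLC3A2 (chr11:62881727-62881748, plus strand, motif from base 38 after the start): caggactccTTACATCAgctcc
The E-box CACGTG, the letters MYC and its relatives bind, was found in 2 of 9 windows, against 7.43% of all promoters.
SLC7A5 (chr16:87869623-87869646, minus strand, motif from 130 bases before the start): cggacgacgCACGTGctccgagct
SLC43A1 (chr11:57515800-57515823, minus strand, motif from 112 bases before the start): cgggcgagtCACGTGcgcgtgaaa
The core of the antioxidant response element, TGACNNNGC, which NRF2 binds, was found in 3 of 9 windows (SLC3A2, SLC7A1 and SLC7A5), against 13.56% of all promoters. The nuclear receptor half-site AGGTCA was found in none of the 9, against 13.94%. None of these motifs overlapped another in the windows with both. A match is a run of letters, and binding was not measured in these libraries.

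Each library's file gives a normalized level for every gene, on a scale common to the 36, in place of raw counts. The levels added up to between 27027824 and 34621958 per library, and reads estimated roughly from the commonest low value (8.54% to 46.9% of values under 20 times it lay within 0.02 of a whole multiple, by library) were fewest in WM793 DMSO replicate 1 (6600000) and most in replicate 1 of A375 DMSO + DOX (60500000). Of 13 melanoma markers, SOX10 (5684 to 24850) and PRAME (4810 to 8746) were among those present in every library, and MLANA was at or near 0. TYR (highest 4.9) was low too, as were the medians of TYRP1 (3.11), GPR143 (4.82) and PMEL (38.6). Under BRAFi + MEKi, DCT rose in 1205Lu, WM793 and A375 (log2 fold changes 6.44, 8.16 and 7.58), and others of the 13 moved in both directions. Of 16 markers of other cell types, CD68 (345.2 to 6429) and PDGFRB (286.7 to 2162) were present in every library, and KRT1 was at 0 throughout. The fibroblast markers LUM (median 224, highest 906), COL1A1 (3.04 to 318.7) and DCN (median 54.0, highest 286.0) and the keratin KRT14 (median 18.9, highest 244.2) were detected too. NR2F1 was higher with DOX than without in every line and arm without overlap, for example 2805 to 4575 in 1205Lu BRAFi + MEKi and 30839 to 35345 with DOX. The narrowest gap was under DMSO in 1205Lu, from 2182, 2327 and 6273 to 9155, 9270.3 and 20699 (log2 fold change 1.93, adjusted p = 0.41). Reads from the cDNA may count toward these values. Of 18 genes that ERK keeps on, 15 fell in 1205Lu, 16 in WM793 and 17 in A375 under BRAFi + MEKi, and none rose. Of the other cell type markers, 2 of 8 tested rose and 1 fell in 1205Lu in the same comparison, 3 of 11 rose in WM793, and 1 of 13 rose and 2 fell in A375. Their summed level was 2391 to 2720 under DMSO and 1829 to 2314 under BRAFi + MEKi in 1205Lu, lower without overlap. It was 1591 to 1926 and then 2348 to 3271 in WM793, without overlap, and 5568 to 6006 and then 5246 to 8556 in A375. Their part in the results was not tested. In the samples analysed, fewer cells of a type and less RNA per cell cannot be told apart. Unless stated otherwise, log2 fold changes are on the log2(value + 1) scale, and adjusted p values come from limma (moderated test, Benjamini-Hochberg over every gene tested), with a threshold of 0.05. The methods call the replicates independent experiments.

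2 libraries stood apart in these genes. In 1205Lu BRAFi + MEKi + DOX replicate 1, all 10 transporters lay above the other 2 libraries of the group, with a median log2 deviation of 0.74 from the mean of those 2. In A375 DMSO + DOX replicate 3, all 10 again lay above both others, with a median of 1.06. Of 32 genes of the ATF4 and integrated stress response list, which holds none of the 10, 27 lay above the mean of the others in the first library (median 0.79) and 28 in the second (median 1.22). The list of other amino acid transporters did not move with them, with medians of 0.03 and 0.07, and the markers of other cell types had medians of -0.03 and -0.19. What sets these libraries apart was not tested, and the values without them are given beside the results they move most.

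**Figure D1:**
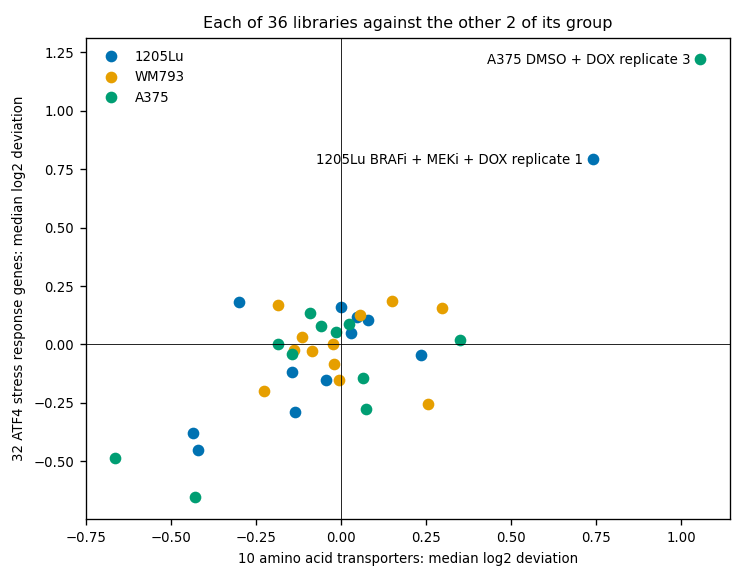
Each point is 1 of 36 libraries, as the median log2 deviation from the mean of the other 2 libraries of its group over the 10 transporters (x axis) and over 32 ATF4 stress response genes (y axis), colored by line. A375 DMSO + DOX replicate 3 (1.06 and 1.22) and 1205Lu BRAFi + MEKi + DOX replicate 1 (0.74 and 0.79) lie far to the upper right, and the 2 remaining A375 DMSO + DOX libraries to the lower left.

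Under DMSO, levels per kb of exon were compared between genes within a line. In 1205Lu, SLC1A5 had 2025 ± 533 (SD, n = 3) normalized units per kb and SLC7A5 1943 ± 449, and their libraries overlapped. SLC3A2 followed at 1151 ± 121, below both. SLC38A2, SLC7A1, SLC1A4 and SLC7A11 had means from 582 to 733, each overlapping its neighbour in that order. SLC38A1 came next at 384 ± 80.3. SLC6A9 (110 ± 27.0) and SLC43A1 (94.4 ± 25.7) were lowest and overlapped. The same pair of genes led in WM793, with SLC7A5 at 1375 ± 105 and SLC1A5 at 1324 ± 85.1, again overlapping. SLC6A9 was lowest there at 39.4 ± 2.60, under SLC43A1 at 204 ± 27.8. A375 differed at the top. SLC7A5 stood at 3689 ± 22.3 per kb, apart from SLC1A5 at 1511 ± 169, which overlapped SLC38A2 at 1381 ± 392.

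**Figure D2:**
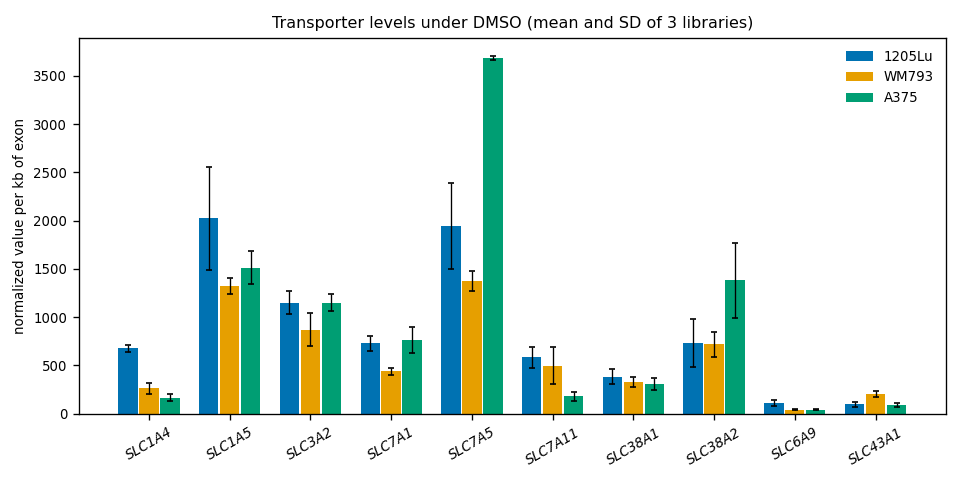
Bars give the mean normalized value per kb of exon under DMSO (y axis, from 0) for each transporter (x axis) in 3 lines, with the SD of 3 libraries. SLC7A5 in A375 is the tallest bar at 3689, and SLC6A9 and SLC43A1 are the lowest in every line.

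Between lines under DMSO, 4 of 10 transporters differed between 1205Lu and WM793 (30.7% of all genes did), 5 between 1205Lu and A375 (46.8%) and 6 between WM793 and A375 (47.5%), shares near the background. Rescaling to the same total moved the median of all genes by -0.13 between WM793 and A375. SLC1A4, the serine and alanine exchanger, was graded. Its values were 4465, 4970.3 and 4658 in 1205Lu, 2272, 1621 and 1571 in WM793, and 975, 1055 and 1406 in A375. No library of one line overlapped the next. The log2 difference was 1.39 for 1205Lu over WM793 (adjusted p = 3.53e-05) and 0.67 for WM793 over A375 (adjusted p = 0.024). The second of these was lost when WM793 DMSO replicate 1 was left out (0.50, adjusted p = 0.14), without A375 DMSO replicate 1 (0.56, adjusted p = 0.10), without A375 DMSO replicate 2 (0.62, adjusted p = 0.072), and when libraries were rescaled to the same total (0.50, adjusted p = 0.092).

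SLC7A5, the leucine carrier, was higher in A375. It had 17626, 17644 and 17452 there, 6839, 10909 and 10025 in 1205Lu, and 6471, 7084 and 6093 in WM793. A375 lay above every library of both other lines, with log2 differences of -0.95 for 1205Lu against A375 (adjusted p = 0.0037) and -1.43 for WM793 against A375 (adjusted p = 4.64e-05). SLC38A2, the shortage-induced glutamine carrier, was also higher in A375, with log2 differences of -0.93 for 1205Lu against A375 (adjusted p = 0.0049) and -0.92 for WM793 against A375 (adjusted p = 0.0055). Both calls were lost without A375 DMSO replicate 3 (-0.71, adjusted p = 0.05002, and -0.70, adjusted p = 0.054). The first was also lost without 1205Lu DMSO replicate 2 (-0.69, adjusted p = 0.054).

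The cystine carrier SLC7A11 had 1377, 1548 and 2240.2 in A375, below the 4659 to 6790.1 of 1205Lu and the 2663 to 6147 of WM793. The log2 difference of 1205Lu against A375 was 1.72 (adjusted p = 0.012). Its difference from WM793, 1.41 (adjusted p = 0.038), was lost without any 1 of WM793 DMSO replicates 2 and 3 and A375 DMSO replicates 1 and 2 (1.18 to 1.35, adjusted p from 0.089 to 0.13), with no filter (adjusted p = 0.052) and after rescaling to a common total (1.25, adjusted p = 0.076). SLC7A1 was lower in WM793 than in either other line (log2 differences of 0.73 for 1205Lu against WM793 and -0.79 for WM793 against A375). SLC6A9 was higher in 1205Lu than in both, by 1.44 and 1.38. SLC43A1 was higher in WM793 than in both (-1.14 for 1205Lu against WM793 and 1.21 for WM793 against A375).

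The main question for these genes was what BRAFi + MEKi does to them. Under BRAFi + MEKi without DOX, 6 of the 10 transporters fell in 1205Lu and none rose, 7 fell in A375 and none rose, and in WM793 3 rose and none fell. Of all genes tested, 30.9% were called in 1205Lu (16.5% higher and 14.4% lower), 39.5% in A375 (20.5% higher and 19% lower) and 37.3% in WM793 (20.4% higher and 16.9% lower). Shares of all genes, here and elsewhere, cover every gene with any group mean of at least 1. Group means of the members ran from 82.8 to 17574, so these shares are not matched for level and include many weakly expressed genes. The median log2 fold change of the 10 was -1.33 in 1205Lu, -0.80 in A375 and -0.09 in WM793, beside medians over all genes tested of 0.11, 0.06 and 0.15. When libraries were rescaled to the same total, these last medians moved up by 0.06, 0.14 and 0.18, and rises made up 62.4% of all calls in A375 and 69.1% in WM793, 10.4 and 14.3 percentage points more than before.

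**Figure D3:**
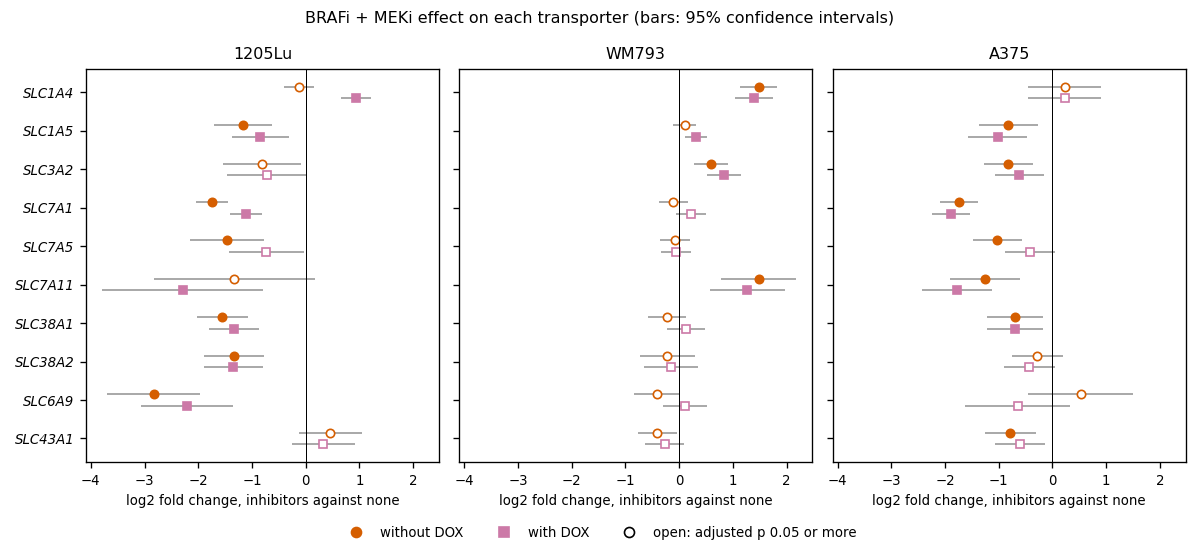
Log2 fold change of each transporter with BRAFi + MEKi against its control (x axis), without DOX (circles) and with DOX (squares), in 3 lines. Bars are 95% confidence intervals from limma, and open symbols missed the threshold. SLC7A1 lies at -1.75 in 1205Lu, -0.11 in WM793 and -1.74 in A375 without DOX.

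The cationic carrier SLC7A1 had the lowest adjusted p of the 10 in 1205Lu and A375. In 1205Lu it went from 6049.6, 4900.4 and 5840.4 under DMSO to 1430.2, 1755 and 1826 under BRAFi + MEKi. In A375 it went from 5220.4, 5290.0 and 7053 to 1802, 1726 and 1695. The groups lay far apart in both lines, with log2 fold changes of -1.75 (95% interval -2.04 to -1.45, adjusted p = 1.35e-06) and -1.74 (-2.08 to -1.39, adjusted p = 2.07e-06). In WM793 the values were 3416, 3593 and 3078 and then 3162, 2909 and 3292. These overlapped, and the log2 fold change was -0.11 (-0.38 to 0.17, adjusted p = 0.54).

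SLC7A5 fell from 6839, 10909 and 10025 to 2893, 4020.3 and 3064 in 1205Lu. It fell from 17626, 17644 and 17452 to 7915, 7813 and 10423 in A375. Neither pair of groups overlapped, and the log2 fold changes were -1.46 (adjusted p = 0.0037) and -1.02 (adjusted p = 0.0018). In WM793 it stayed between 5636 and 7094 in all 6 libraries, a log2 fold change of -0.07 (-0.35 to 0.20, adjusted p = 0.68).

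The partner chain SLC3A2 went in opposite directions. In WM793 it rose from 4534, 6699 and 5418 to 9885, 7151 and 8016, with no overlap (log2 fold change 0.59, adjusted p = 0.0061). In A375 it fell from 7872, 7462 and 6747 to 4062, 3995 and 4449.6 (-0.82, adjusted p = 0.0065). In 1205Lu the values were 6729, 7115 and 8222 and then 4948, 3812 and 3844. The groups did not overlap, but the log2 fold change of -0.81 had an adjusted p of 0.086 in a fit that takes its spread from all 12 libraries of the line. In a fit of only these 6 libraries its adjusted p was 0.0039.

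SLC7A11, the cystine light chain, followed SLC3A2 in direction. In WM793 it rose from 2663, 6147 and 5465 to 15961, 9655 and 12604, so the lowest treated library lay above the highest control (log2 fold change 1.48, adjusted p = 0.0027). In A375 it fell from 1377, 1548 and 2240.2 to 844, 699 and 589 (-1.26, adjusted p = 0.0043). In 1205Lu it had 6790.1, 4659 and 5403 and then 1436, 2437 and 3068, again without overlap. There the log2 fold change was -1.33 (-2.83 to 0.17, adjusted p = 0.17), and 0.0041 was the adjusted p in the fit of only the 6 libraries compared.

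Among the carriers of small neutral amino acids, SLC1A5 fell in 1205Lu from 5116, 8637 and 6490.4 to 2453, 3628 and 2873 (log2 fold change -1.16, adjusted p = 0.0031). In A375 it fell from 4684, 4735 and 5686 to 2734, 2772 and 3033 (-0.82, adjusted p = 0.020). The A375 call was lost without DMSO replicate 3 (-0.73, adjusted p = 0.072), and with either replicate 1 or replicate 2 of BRAFi + MEKi left out (0.063 and 0.057). In WM793 the groups overlapped and the log2 fold change was 0.11 (adjusted p = 0.43). It became 0.31 (adjusted p = 0.026) when libraries were rescaled to the same total.

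Its relative SLC1A4 behaved otherwise. In WM793 it rose from 2272, 1621 and 1571 to 5777, 4823 and 4518. No treated library was as low as any control, and the log2 fold change was 1.48 (1.13 to 1.83, adjusted p = 9.44e-06). In 1205Lu the 2 groups overlapped (4465 to 4970.3 and 4054 to 4856, log2 fold change -0.12, adjusted p = 0.52), as they did in A375 (0.23, adjusted p = 0.61).

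The 2 sodium-coupled glutamine carriers fell in 1205Lu. SLC38A1 went from 4682, 3081 and 3763 to 1631, 1055 and 1241 (log2 fold change -1.56, adjusted p = 0.00015). SLC38A2 went from 6469, 3272 and 4567 to 2033, 1651 and 1789 (-1.34, adjusted p = 0.0014). Neither overlapped. In A375 SLC38A1 fell from 2645, 2711 and 3766 to 1929, 1807 and 1849 (-0.69, adjusted p = 0.036). That call was lost without DMSO replicate 2 or 3 or any 1 of the 3 BRAFi + MEKi libraries (-0.52 to -0.76, adjusted p from 0.052 to 0.15), and when libraries were rescaled to the same total (-0.53, adjusted p = 0.084). SLC38A2 overlapped in A375 (-0.28, adjusted p = 0.35). Both overlapped in WM793, with log2 fold changes of -0.22.

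The glycine carrier SLC6A9 had the largest fall of the 10 in 1205Lu. Its values were 417, 622 and 689 under DMSO and 47.7, 109 and 91.6 under BRAFi + MEKi, a log2 fold change of -2.83 (-3.70 to -1.97, adjusted p = 0.00015). In A375 it went from 202, 201 and 245 to 304, 296 and 334. All 3 treated libraries were higher, but the log2 fold change of 0.53 had an adjusted p of 0.38 beside the spread of the line's DMSO + DOX libraries (246, 301 and 1401), and 0.019 in a fit of only the 6 libraries. In WM793 it had 204, 221 and 194 and then 175, 130.0 and 161 (-0.42, adjusted p = 0.10).

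SLC43A1 fell in A375, from 366, 319 and 251 to 197, 186 and 156 (log2 fold change -0.78, adjusted p = 0.011). Without DMSO replicate 1 the change was -0.66 (adjusted p = 0.055). In 1205Lu its groups overlapped (0.46, adjusted p = 0.23). In WM793 it had 628, 707 and 823 and then 499, 553 and 572 (-0.40, adjusted p = 0.078).

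The same question was asked in cells with NR2F1 switched on, from BRAFi + MEKi + DOX and DMSO + DOX libraries, which share none with the comparison above. In 1205Lu 6 transporters fell and 1 rose (28.2% of all genes were called, 15.1% higher and 13.2% lower). In WM793 4 rose and none fell (31.7%, 16.7% higher and 15.1% lower). In A375 5 fell and none rose (31%, 16.2% higher and 14.8% lower). Of the 10, 5 in 1205Lu (SLC1A5, SLC7A1, SLC38A1, SLC38A2 and SLC6A9), 3 in WM793 (SLC1A4, SLC3A2 and SLC7A11) and 5 in A375 (SLC1A5, SLC3A2, SLC7A1, SLC7A11 and SLC38A1) were called in the same direction in both arms. SLC7A1 had log2 fold changes of -1.11 in 1205Lu (adjusted p = 5.9e-05) and -1.88 in A375 (adjusted p = 2.15e-06). SLC1A4 rose in 1205Lu, where it had not without DOX, from 4935, 4809 and 4208 to 9991, 8561 and 8307 (0.94, adjusted p = 0.00016). In WM793 SLC1A4 rose by 1.39 (adjusted p = 2.32e-05), SLC7A11 by 1.27 (adjusted p = 0.0086) and SLC3A2 by 0.84 (adjusted p = 0.00066). SLC1A5 rose there by 0.32 (adjusted p = 0.024), a call lost without any 1 of DMSO + DOX replicates 1 and 3 and BRAFi + MEKi + DOX replicates 1 and 3 (adjusted p from 0.052 to 0.084).

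The libraries that stand apart weigh on this arm. Without 1205Lu BRAFi + MEKi + DOX replicate 1, SLC3A2 (log2 fold change -1.29, adjusted p = 0.00017) and SLC7A5 (-1.18, adjusted p = 0.0033) fell too, and 9 of the 10 were called in place of 7. Leaving out a library changes the fit of every gene, so that count alone does not show a change particular to the transporters. SLC7A11 in this line had 9879.6, 5414 and 5311 and then 7017, 604 and 572 (-2.29, adjusted p = 0.025). Without replicate 1 of the treated group its log2 fold change was -3.48 (adjusted p = 9.02e-06). Its call was lost without either of the 2 low libraries, replicate 2 (-1.71, adjusted p = 0.12) or 3 (-1.67, adjusted p = 0.12), and without DMSO + DOX replicate 1 (-1.996, adjusted p = 0.094) or 2 (-2.43, adjusted p = 0.051). It was also lost in a fit of only the libraries compared (-2.29, adjusted p = 0.080). SLC1A5 (-0.84, adjusted p = 0.022) was lost without DMSO + DOX replicate 2 or 3 or BRAFi + MEKi + DOX replicate 2 or 3 (adjusted p from 0.075 to 0.098), and when libraries were rescaled to the same total (adjusted p = 0.055).

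In A375 the control arm held the library that stands apart. Without DMSO + DOX replicate 3, SLC3A2 (-0.28, adjusted p = 0.097) and SLC38A1 (-0.33, adjusted p = 0.15) were no longer called lower and SLC1A4 rose (0.75, adjusted p = 0.0044). SLC3A2 (-0.62, adjusted p = 0.038 with all libraries) also lost its call without any 1 of the 3 BRAFi + MEKi + DOX libraries (adjusted p from 0.060 to 0.12), as did SLC38A1 (-0.70, adjusted p = 0.042 with all libraries; 0.054 to 0.13). SLC7A1, SLC7A11 and SLC1A5 kept their calls without each library of the 2 groups in turn, with SLC1A5 moving from -1.02 to -0.58 without DMSO + DOX replicate 3.

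**Figure D4:**
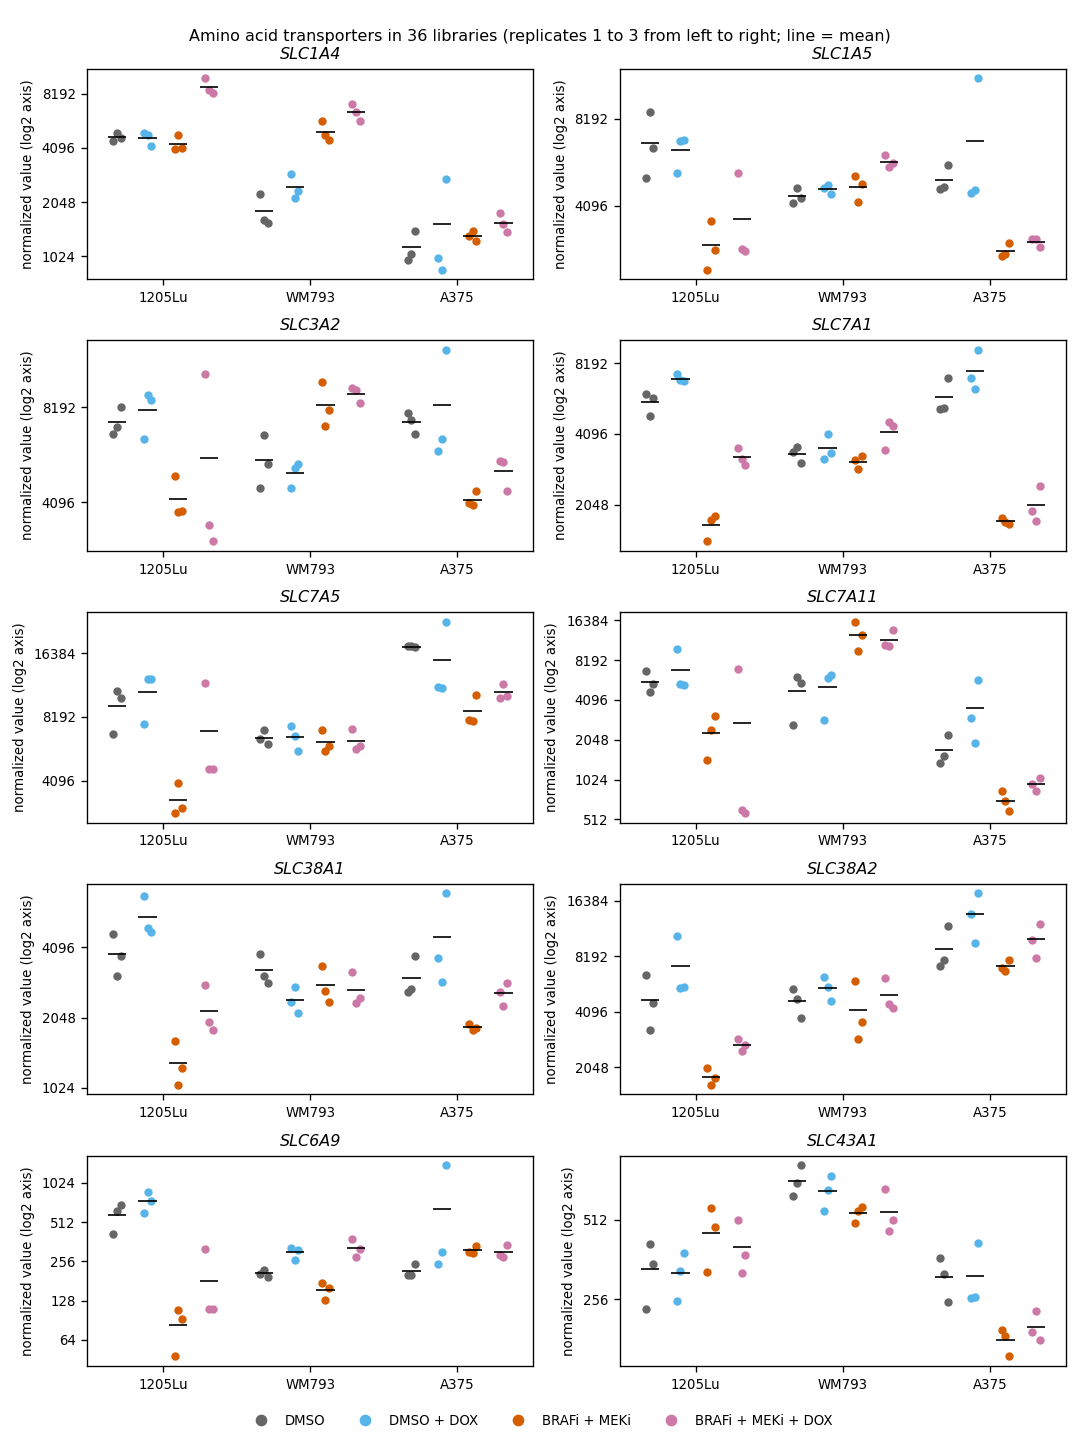
Normalized values of each transporter (y axis, log2 scale) in all 36 libraries, grouped by line (x axis) and colored by treatment; black lines are group means. The orange BRAFi + MEKi points of SLC7A1 lie between 1430.2 and 1826 in 1205Lu and A375, below the gray DMSO points, while those of SLC1A4 and SLC7A11 lie above them in WM793.

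The difference in the response to BRAFi + MEKi between lines was tested directly in a fit of all 36 libraries. Between 1205Lu and WM793, 9 of the 10 transporters responded lower in 1205Lu, where 14.5% of all genes differed (6.52% higher and 7.94% lower). SLC43A1 was the exception (0.86, adjusted p = 0.080). The log2 difference was -2.81 for SLC7A11, -2.41 for SLC6A9, -1.64 for SLC7A1 and -1.60 for SLC1A4 (adjusted p = 0.014, 0.0042, 2.18e-06 and 0.0015). The SLC38A2 difference, -1.12 (adjusted p = 0.046), was the weakest. It was lost in 8 of the 12 fits that leave out 1 library of these 4 groups and with a pseudocount of 0.1 (adjusted p = 0.051). SLC7A11 was lost without WM793 DMSO replicate 1 (-2.44, adjusted p = 0.051).

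Between WM793 and A375, 5 of the 10 responded higher in WM793 (22.8% of all genes differed, 12.7% higher and 10.1% lower). These were SLC7A11 (2.74, adjusted p = 0.012), SLC7A1 (1.63, adjusted p = 7.24e-07), SLC3A2 (1.41, adjusted p = 0.0089), SLC1A4 (1.26, adjusted p = 0.0077) and SLC1A5 (0.92, adjusted p = 0.047). The last was lost in 11 of the 12 fits that left out a library of these 4 groups (adjusted p from 0.055 to 0.10), all but the one without WM793 BRAFi + MEKi replicate 2, and with a pseudocount of 0.1 (adjusted p = 0.052). Between 1205Lu and A375, 2 differed (14.7% of all genes, 8.08% higher and 6.65% lower). SLC6A9 responded lower in 1205Lu (-3.36, adjusted p = 0.00016) and SLC43A1 higher (1.24, adjusted p = 0.0098). For SLC7A1 the difference between these 2 lines was -0.01, with a 95% interval of -0.43 to 0.41.

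The ATF4 list was examined beside these responses, because many of the members are its known targets. ATF4 itself fell in 1205Lu (log2 fold change -1.11, adjusted p = 0.0014), rose in WM793 (0.80, adjusted p = 0.00033) and had -0.38 in A375 (adjusted p = 0.26). Of 32 genes of the list, 19 fell and 2 rose in 1205Lu (median -0.89), 17 rose and 4 fell in WM793 (median 0.42), and 8 fell and 3 rose in A375 (median -0.32). In 1205Lu, log2 fold changes were -3.45 for CHAC1, which degrades glutathione, -2.57 for the asparagine synthetase ASNS and -2.35 for the serine synthesis enzyme PSAT1. In WM793, NUPR1, STC2, ATF3 and CHAC1 rose by 4.55, 3.02, 2.49 and 2.21. In A375 the largest changes of the list went both ways, with ATF3 (2.36) and NUPR1 (2.33) rising and STC2 (-2.20) and the serine synthesis enzyme PHGDH (-1.85) falling. The difference between 1205Lu and WM793 was called lower for 20 of the 32 and higher for 1 (median -1.57).

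MYC fell in every line. Its log2 fold changes in 1205Lu, WM793 and A375 were -2.07, -1.67 and -1.92 (adjusted p = 1.67e-05, 5.57e-06 and 0.00026). Of its relatives, MYCN (2.38) and MYCL (1.80) rose in 1205Lu, MYCN fell in WM793 (-6.49) and MYCL fell in A375 (-1.16). NFE2L2, the gene of NRF2, rose in 1205Lu, WM793 and A375, by 1.17, 0.54 and 0.83 (adjusted p = 6.37e-05, 0.00094 and 2.04e-05). Of 16 genes on the NRF2 and glutathione list, 10 rose and 3 fell in 1205Lu, 9 rose and 4 fell in WM793, and 5 rose and 4 fell in A375. Of the 30 amino acid sensing and mTORC1 genes, 6, 10 and 12 rose and 1, 3 and 5 fell in the 3 lines in that order; SESN3, a sestrin, rose in all 3, by 2.44, 1.33 and 1.51. Of the enzymes that use glutamine, glycine and branched chain amino acids, 11 of 25 fell in 1205Lu, 12 of 24 in WM793 and 15 of 25 in A375, with 2, 1 and 5 rising. Whether any of these moves accounts for the transporters was not tested.

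The remaining amino acid transporters of a list of 39 were mixed. In 1205Lu 8 of 25 tested rose and 4 fell (median 0.01), in WM793 10 of 26 rose and 7 fell (median 0.53), and in A375 9 of 29 rose and 8 fell (median -0.22). The glutamate carrier SLC1A3 fell in 1205Lu (-1.89, adjusted p = 0.00022) and WM793 (-1.91, adjusted p = 3.29e-06). SLC7A8 (LAT2), another light chain of SLC3A2, rose in 1205Lu (2.18, adjusted p = 0.011) and A375 (2.94, adjusted p = 0.00066), where SLC7A5 fell. SLC38A4 rose by 4.73 in WM793 (adjusted p = 2.53e-05).

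DOX against no DOX was compared next, under DMSO and under BRAFi + MEKi. Under DMSO, limma called none of the 10 transporters with DOX in any line (of all genes, 1205Lu had 0.00903% called, WM793 0.512% and A375 0.0492%). These comparisons share their DMSO libraries with those of BRAFi + MEKi against DMSO. In 1205Lu the log2 fold changes ranged from -0.06 to 0.59, with 0.34 for SLC7A1, 0.52 for SLC38A1 and 0.59 for SLC38A2. In WM793 they ranged from -0.42 for SLC38A1 to 0.53 for SLC6A9, with 0.46 for SLC1A4. In A375 they ranged from -0.29 to 1.12, and SLC7A1, SLC7A11, SLC38A2 and SLC6A9 had 0.37, 0.94, 0.61 and 1.12. Without A375 DMSO + DOX replicate 3 these 4 had 0.21, 0.52, 0.40 and 0.34, and SLC1A4, SLC1A5 and SLC3A2 turned from 0.24, 0.31 and 0.09 to -0.28, -0.13 and -0.24. None of the 10 was called there either.

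Under BRAFi + MEKi, 2 of the 10 rose with DOX in 1205Lu (0.334% of all genes were called, 0.199% higher and 0.135% lower) and 1 rose in WM793 (0.204%, 0.0951% higher and 0.109% lower). With limma none was called in A375 (1.52%, 1.37% higher and 0.152% lower). SLC1A4 rose in 1205Lu from 4054, 4856 and 4070.1 to 9991, 8561 and 8307. The groups were far apart, and the log2 fold change was 1.05 (0.77 to 1.33, adjusted p = 0.0067). SLC7A1 rose from 1430.2, 1755 and 1826 to 3564, 3199 and 3017, without overlap (0.97, 0.68 to 1.26, adjusted p = 0.010). Those values were still below the 4900.4 to 6049.6 of DMSO. SLC7A1 was no longer called when replicate 2 (0.98, adjusted p = 0.084) or 3 (1.02, adjusted p = 0.063) of BRAFi + MEKi + DOX was left out. In a fit of only the 6 libraries compared both were lost (adjusted p = 0.098 for SLC1A4 and 0.12 for SLC7A1).

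Same-numbered libraries deviated together in this comparison, and with the replicate number as a block SLC38A1 was called as well. It had 1631, 1055 and 1241 without and 2821, 1956 and 1809 with DOX, a log2 fold change of 0.74 (adjusted p = 0.0082 with the block and 0.21 without).

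SLC7A11 in 1205Lu under BRAFi + MEKi was split. Its values were 1436, 2437 and 3068 without DOX and 7017, 604 and 572 with DOX, and the log2 fold change was -0.71 (-2.22 to 0.79, adjusted p = 0.81). Without BRAFi + MEKi + DOX replicate 1, it fell, with a log2 fold change of -1.91 (adjusted p = 0.0074). SLC7A5 had 11797, 4643 and 4647 with DOX, against 2893, 4020.3 and 3064 (0.95, adjusted p = 0.30), and SLC3A2 had 10412, 3455 and 3073, against 4948, 3812 and 3844 (0.20, adjusted p = 0.92). The high library in each is the same replicate 1. Without it SLC7A5 had 0.50 (adjusted p = 0.32) and SLC3A2 turned to -0.36 (adjusted p = 0.32), while SLC1A4 (0.97, adjusted p = 0.0027) and SLC7A1 (0.90, adjusted p = 0.0061) were still called.

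In WM793, SLC6A9 rose from 175, 130.0 and 161 to 377, 277 and 318 with DOX under BRAFi + MEKi. The groups lay apart, with a log2 fold change of 1.06 (0.64 to 1.47, adjusted p = 0.048). The call was at the edge of the threshold and was lost when any 1 of the 6 libraries was left out (0.93 to 1.16, adjusted p from 0.091 to 0.24). In A375 the log2 fold changes ranged from -0.05 for SLC6A9 to 0.48 for SLC38A1.

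**Figure D5:**
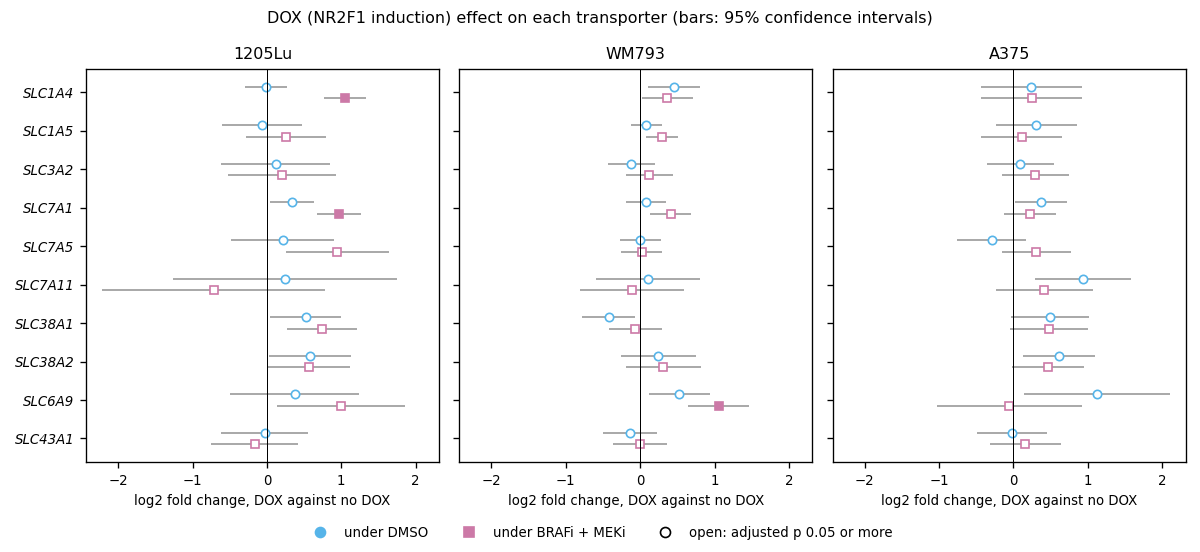
Log2 fold change of each transporter with DOX against no DOX (x axis), under DMSO (circles) and under BRAFi + MEKi (squares), in 3 lines, with 95% confidence intervals from limma; filled symbols passed the threshold. The filled symbols are SLC1A4 (1.05) and SLC7A1 (0.97) in 1205Lu and SLC6A9 (1.06) in WM793, all under BRAFi + MEKi.

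Whether the DOX effect differed between BRAFi + MEKi and DMSO was tested as an interaction. With limma no transporter was called in any line (0%, 0% and 0.46% of all genes in 1205Lu, WM793 and A375), and 2, 0 and 0 had an unadjusted p under 0.05. The 2 were SLC1A4 (1.07, adjusted p = 0.31) and SLC7A1 (0.63, adjusted p = 0.79) in 1205Lu. Without 1205Lu BRAFi + MEKi + DOX replicate 1, SLC1A4 had 0.98 with an adjusted p of 0.046. Without A375 DMSO + DOX replicate 3, SLC7A5 had 0.94 in A375 with an adjusted p of 0.044. Under BRAFi + MEKi, a difference in the DOX effect from one line to another was called for none of the 10 in any pair (0.138% of all genes for 1205Lu and WM793, 0.179% for 1205Lu and A375, 0.881% for WM793 and A375). Unadjusted p values were under 0.05 for 3, 2 and 0 of them. Without 1205Lu BRAFi + MEKi + DOX replicate 1, SLC7A11 differed between 1205Lu and A375 (-2.32, adjusted p = 0.017).

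The 10 transporters varied together in part. Over the 12 group means, centred within each line, Pearson's r between pairs of members ranged from -0.41 to 0.96 with a median of 0.66, and 33 of 45 pairs were above 0. These points share lines and libraries, and r is given as a description. No r for pairs of other genes is given beside it. The response to BRAFi + MEKi, called for 30.9% to 39.5% of all genes by line, enters every pair, so r is not particular to this set. Both libraries that stand apart enter them. Without those 2, an alternative chosen after seeing the data, r ranged from -0.56 to 0.94 with a median of 0.62, and 31 of 45 pairs were above 0. With all libraries the lowest pair was SLC6A9 and SLC43A1. Among 10954 genes whose mean reached 100 in each line, the genes with the highest r to a member were ATXN2L (0.985) for SLC1A5, GPRC5B (0.987) for SLC7A1, GANAB (0.98) for SLC7A5, OXSR1 (0.982) for SLC3A2, BCL2 (0.969) for SLC7A11, PALLD (0.959) for SLC1A4, RNF169 (0.962) for SLC38A1, CDC42BPA (0.967) for SLC38A2, SFT2D2 (0.969) for SLC6A9 and LETMD1 (0.991) for SLC43A1. Without the 2 libraries LETMD1 alone was still the first gene for its member, and the r of these 10 genes ranged from 0.735 (GANAB and SLC7A5) to 0.976 (GPRC5B and SLC7A1).

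Several members overlap other genes on GRCh38, by GENCODE 44. SLC6A9 (chr1:43991500-44031467, minus strand) overlaps CCDC24 on the opposite strand, and SLC7A11 (chr4:138164097-138242349, minus strand), SLC38A2 (chr12:46358188-46372773, minus strand), SLC7A5 (chr16:87830023-87869507, minus strand) and SLC1A4 (chr2:64988477-65023865, plus strand) each overlap a long noncoding RNA gene on the opposite strand. The library kit does not mark strand, so reads in the shared stretches cannot be told apart.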

How the data were processed

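RNA-Seq libraries of 12 groups with 3 replicates each were used, all 36 of them. The authors aligned reads with STAR to GRCh38, quantified genes with RSEM and normalized them with DESeq2, and the deposited signal values are these normalized expression values per gene. They are not counts: in no library did more than 46.9% of low values (under 20 times the commonest low value) lie within 0.02 of a whole multiple of that value, so tests for counts were not used. Values were analysed as log2(value + 1) with limma 3.58.1 in R 4.3.3 (moderated test with a mean-variance trend). A gene was tested where any group mean reached 1, in 12 libraries per line or all 36 between lines, with Benjamini-Hochberg adjustment over all genes tested and a threshold of 0.05. The fit was tested on simulated data. Summaries were made in Python 3.11.15 (pandas 2.3.3, numpy 2.4.6). The members and gene lists were chosen with earlier results of these data known. Genes outside the 10 members are named by rule: at most the 4 largest called changes per list and line, the regulators ATF4, NFE2L2 and MYC, NR2F1, and the 3 genes most like each member (the first is printed). Cell type markers (SOX10, PRAME, MLANA, TYR, KRT1, KRT14, CD68, PDGFRB, LUM, COL1A1 and DCN) fall outside that rule and were picked after their values were seen.

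Whether same-numbered replicates belong together was checked by the correlation, across genes, of their deviations from the group mean. It was above 0.1 for all 3 numbers in BRAFi + MEKi + DOX against BRAFi + MEKi in 1205Lu (0.27, 0.11 and 0.11) and WM793 (0.25, 0.18 and 0.11), and not in the other within-line comparisons. The pairing comes from the data alone. Alternatives were a pseudocount of 0.1, no filter, a filter of at least 10, libraries rescaled to the same total, array weights, the replicate block, only the libraries compared, and leaving out each library.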

Additional observations from a re-analysis of the deposited data

Results flagged for a closer look

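The response to BRAFi + MEKi differed between lines, by limma's test of the difference itself, for 16 combinations of a transporter and a pair of lines. Between 1205Lu and WM793 the log2 difference was -1.60 for SLC1A4, -1.27 for SLC1A5, -1.41 for SLC3A2, -1.64 for SLC7A1, -1.39 for SLC7A5, -2.81 for SLC7A11, -1.33 for SLC38A1, -1.12 for SLC38A2 and -2.41 for SLC6A9. Between 1205Lu and A375 it was -3.36 for SLC6A9 and 1.24 for SLC43A1. Between WM793 and A375 it was 1.26 for SLC1A4, 0.92 for SLC1A5, 1.41 for SLC3A2, 1.63 for SLC7A1 and 2.74 for SLC7A11. Line and medium cannot be told apart in the pairs with A375.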

How the results depend on the processing

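No result changed sign under an alternative while called. The count of transporters called with DOX under BRAFi + MEKi in WM793 (1) became 0 with a pseudocount of 0.1, with no filter, with libraries rescaled to the same total and with only the libraries compared, and 2 with array weights. In A375, BRAFi + MEKi + DOX against DMSO + DOX (5) gave 3 with no filter, 3 rescaled and 3 with only the libraries compared. In 1205Lu, BRAFi + MEKi + DOX against BRAFi + MEKi (2) gave 4 with array weights (3 higher and 1, SLC7A11, lower at -1.80) and 0 with only the libraries compared, and the interaction (0) gave 1 with array weights. In WM793, BRAFi + MEKi against DMSO (3) gave 5 with array weights, of which 3 were higher and 2 lower (SLC6A9 at -0.48 and SLC43A1 at -0.39), and DMSO + DOX against DMSO (0) gave 1. Between 1205Lu and A375, array weights gave 4 differences in response to BRAFi + MEKi (2), 1 higher and 3 lower, and 2 in the DOX effect (0), 1 in each direction. Each setting changes the fit of every gene, and the share of all genes called under it is not given here. These counts, and those with the replicate block or a library left out, therefore do not show a change particular to the transporters. The cause was not tested.

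With the replicate block, the 1205Lu and A375 comparison gave 4 differences in response to BRAFi + MEKi and 1 in the DOX effect (SLC7A1, 0.75, adjusted p = 0.047). DMSO + DOX against DMSO in WM793 gave 1 (SLC1A4, 0.46, adjusted p = 0.038). Besides SLC38A1 in 1205Lu, the block also added SLC38A2 in A375 with DOX (-0.43, adjusted p = 0.025) and changed no other call. In these other comparisons pairing was less clear. The correlations of same-numbered libraries were 0.148, 0.085 and 0.097 in WM793 (DMSO + DOX against DMSO). They were 0.097, 0.097 and 0.050 in A375 (BRAFi + MEKi + DOX against DMSO + DOX). In both, each library correlated best with its own number. For the differences between lines no such check was made.

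Leaving out each library gave counts of 6 to 6 in 1205Lu, 3 to 3 in WM793 and 5 to 6 in A375 for BRAFi + MEKi against DMSO, and 5 to 9, 3 to 4 and 3 to 6 with DOX. For DOX under BRAFi + MEKi they were 1 to 3, 0 to 0 and 0 to 0, and for the interaction 0 to 1, 0 to 0 and 0 to 1. Under DMSO the DOX counts stayed at 0. The level under DMSO gave 4 to 5 in every pair of lines. The differences in response gave 8 to 10 (1205Lu and WM793), 2 to 4 (1205Lu and A375) and 4 to 5 (WM793 and A375), and those in the DOX effect 0 to 0, 0 to 1 and 0 to 0. With 3 libraries per group, precision is limited by their number.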
